A study of Mus musculus with 6 samples.

Results

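The 9 genes described here were chosen by name: the claudins Cldn1, Cldn2, Cldn5, Cldn10 and Cldn19, occludin (Ocln), the scaffold protein ZO-1 (Tjp1), and the cadherins Cdh1 and Cdh3. All 9 were found by symbol among the 33924 genes of the table. RNA was measured in RPE/choroid, that is the retinal pigment epithelium and the blood vessel layer under it, collected from eyecups of C57BL/6J mice after the neural retina had been lifted off. There were 3 libraries from young mice, labelled 1 to 2 months, and 3 from aged mice, labelled 20 to 24 months in the titles and 22 to 24 months in the time field. All 6 mice carry the label male and none carries a transgene or a treatment, although per the methods mice of both sexes were used and the young group was somewhat older. Each library came from a pair of eyes. The level described for each gene is 1 mean over all 6 libraries, so young and aged mice are averaged, no value per mouse was analysed here, and neither a spread between mice nor a difference between ages is given.

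Tight junctions seal the space between neighbouring cells near their apical side. Claudins and occludin span the membrane there, each claudin giving the seal its own permeability to ions, and ZO-1 ties them to actin inside the cell. Adherens junctions lie just below, where cadherins of adjacent cells bind each other and catenins link them to actin. In the eye, the tight junctions of the RPE form the outer blood-retina barrier between the choroidal capillaries and the photoreceptors. The choroid beneath holds endothelium, nerves, melanocytes and fibroblasts, and several of these cell types have junction proteins of their own, so a level in this tissue is a sum over cell types. In such a bulk sample, fewer cells of a type and less RNA per cell cannot be told apart.

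The genes lie on 7 chromosomes. Coordinates are those of the GENCODE M21 annotation on GRCm38, the build that the labels name. Cldn5 spans chr16:18776847-18778262 on the plus strand, and Cldn1 lies on the minus strand of the same chromosome at chr16:26356642-26371841. Cldn2 is found at chrX:139800828-139811386, Cldn10 at chr14:118787908-118875489 and Cldn19 at chr4:119255414-119262438, each on the plus strand. Ocln at chr13:100496507-100552718 and Tjp1 at chr7:65296165-65527781 are on the minus strand. The cadherins are close to each other on the plus strand of chromosome 8, with Cdh3 at chr8:106510891-106557297 and Cdh1 at chr8:106603351-106670246.

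The starts of the claudin genes differ in sequence. To show this, the 120 bases just before the annotated start are given 5′ to 3′ on the strand of the gene for both starts of Cldn10 and for the starts of Cldn2, Cldn1 and Cldn5. They were taken from the RefSeq promoter table (GRCm38.p6), which need not use the outermost start of GENCODE. The single Tjp1 start listed there, at 65371244, lies inside the GENCODE span of that minus-strand gene. Capitals mark matches, on either strand, to TATAAA (the TATA box), GGGCGG (the GC box), CCAAT, and the E-boxes CACGTG and CAGGTG. The stretches are chrX:139800688-139800807 for Cldn2, chr14:118787751-118787870 and chr14:118854830-118854949 for Cldn10, chr16:26371840-26371959 (minus strand) for Cldn1 and chr16:18776727-18776846 for Cldn5.
Cldn2: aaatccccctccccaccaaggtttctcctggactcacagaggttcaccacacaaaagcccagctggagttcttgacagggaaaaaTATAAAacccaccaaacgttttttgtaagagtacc
Cldn10, start 1: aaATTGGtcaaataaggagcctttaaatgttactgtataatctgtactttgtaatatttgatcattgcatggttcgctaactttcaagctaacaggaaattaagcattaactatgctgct
Cldn10, start 2: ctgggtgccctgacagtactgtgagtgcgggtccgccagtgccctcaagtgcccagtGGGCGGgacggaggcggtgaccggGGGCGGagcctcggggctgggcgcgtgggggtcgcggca
Cldn1: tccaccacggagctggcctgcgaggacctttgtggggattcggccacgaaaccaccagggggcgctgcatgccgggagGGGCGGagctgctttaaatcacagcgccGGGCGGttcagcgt
Cldn5: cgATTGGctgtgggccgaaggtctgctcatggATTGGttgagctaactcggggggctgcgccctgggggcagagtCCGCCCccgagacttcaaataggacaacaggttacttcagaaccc

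A window of 300 bases, 250 before and 50 after the start, was listed for 10 starts of 7 genes; Cdh1 and Cdh3 were not among them. The windows for Cldn19 overlap each other, as do those of Ocln. The GC content of the upstream Cldn10 window was 36.0%, higher than that of 4.64% of the 32851 windows of all genes, and that of the downstream one was 72.0%, higher than 93.1%. The median over all windows was 52.7%. Reads from both Cldn10 starts, which give proteins with different first parts, are summed in the single value of the gene.

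The GC box was found in 8 of the 10 windows, in each gene but Cldn2, and in 35.7% of all windows. A TATA box was found in the Cldn2 window alone, against 13.6% of all windows. CCAAT was present in 3 windows (Cldn5, the upstream one of Cldn10 and 1 of Ocln), and in 37.4% of all. CAGGTG, an E-box, was present in both Ocln windows and in 20.2% of all. CACGTG was present in 0 of the 10 windows and in 7.15% of all. These are letter matches and were not tested against any measurement of binding.

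The scale of the table could be read from its lowest values. Among the lowest means, under 2 times the smallest one above 0, 6 values were each shared by at least 100 genes (135 to 387), and these are the means that a count of 1 in 1 of the 6 libraries gives. The levels therefore rest on whole numbers per library. Per the methods, TPM values (abundances relative to transcript length) were turned into normalized counts, which leaves unsaid whether length was divided out, while elsewhere the input to DESeq2 is described as read counts. Dividing by length would make 1 read worth more in a short gene. Means of 1 count were 4.03 times as common as means of 2 counts in 1 library among genes with transcripts of up to 500 bases (347 against 86 genes), 4.59 times from 500 to 2000 bases (564 against 123) and 4.49 times over 2000 bases (238 against 53). The ratio was lowest in the short genes, but single counts were still the more common there. On that ground the levels were taken as not divided by length. This is an assumption that was not tested further, and every level per kb rests on it. The values also gave the scaling factors of the 6 libraries, which ran from 0.835 to 1.124, although which factor belongs to which mouse is not known. Genes were therefore compared with each other per kb of their longest annotated transcript. Intervals are 95% Poisson intervals of the summed count, and they cover counting error only, not the spread between mice.

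All 9 genes were above 100 normalized counts, a level reached by 12863 of the 26681 genes with a mean above 0. Their median was 1019 normalized counts, against 82.1 for all genes above 0, and 5 of the 9 (Tjp1, Cldn1, Cldn5, Cdh1 and Cdh3) were in the top 25% of those genes, which began at 615.9. The genes were named for their place in the barrier of this tissue, so a level above the median of all genes is a description of them. All 9 code for proteins, whereas the genes above 0 include non-coding genes. A median over protein-coding genes alone was not computed. Few of their reads can fit another gene, as between 98.4% (Cldn19) and 100% of the 31-base words of each gene occurred in the transcripts of no other gene.

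**Figure D1:**
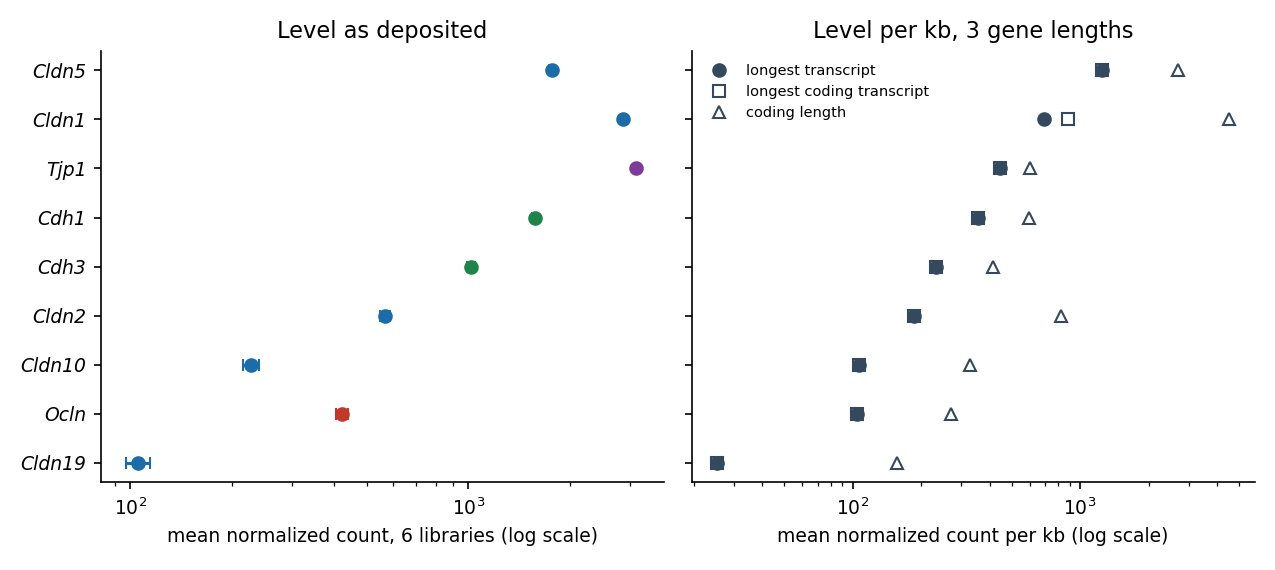
Levels of the 9 junction genes as means over 6 libraries on log axes, left as normalized counts with 95% Poisson intervals and right per kb by 3 gene lengths. Tjp1 and Cldn1 had the highest counts, Cldn5 and Cldn1 the highest levels per kb, and Cldn19 was lowest by each measure.

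Cldn5, the main claudin of endothelium, had a mean of 1769 normalized counts (interval 1735 to 1803), higher than 90.5% of the genes above 0. Its transcript is short, 1.416 kb, so that its level per kb, 1249 (interval 1225 to 1273), was the highest of the 9. The 8 endothelial markers ran from 257 per kb (Cdh5) to 1187 (Plvap), with 0 above Cldn5. On the other scales Cldn5 did not lead them, as 1 marker was above it per kb of coding sequence and 5 by normalized count.

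Cldn1, which seals many epithelia and the sheaths of peripheral nerves, had 2864 normalized counts (interval 2822 to 2907), higher than 95.1% of the genes above 0. Its level per kb was 691 (interval 681 to 701), so Cldn5 was 1.81 times higher on this scale. The order of these claudins depended on the length used. With the coding length in place of the longest transcript, Cldn1 stood at 4525 per kb and Cldn5 at 2704, and the order turned.

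Cldn2 codes for a claudin that forms pores for cations and water. It had 565.9 normalized counts (interval 547 to 585), or 185.9 per kb, and Cldn1 was 3.72 times higher per kb. By coding length Cldn2 stood at 820 per kb, above Tjp1, Cdh1 and Cdh3.

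Cldn10 codes for claudins that pass cations or anions depending on the start used. Its mean was 227.6 normalized counts (interval 216 to 240), higher than 60.2% of the genes above 0, and its level was 107 per kb (interval 101 to 113). On this scale the interval overlapped that of Ocln, whereas per kb of coding sequence Cldn10 was 1.21 times higher and by normalized count Ocln was higher, with intervals apart.

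Cldn19 was the lowest of the 9. This claudin is known from the RPE, the kidney tubule and the myelin of Schwann cells, and its loss in people affects both kidney and eye. Its mean was 105.4 normalized counts (interval 97.4 to 114), which was higher than 52.2% of the genes above 0. Its level was 25.3 per kb, higher than 42.8% of the genes above 0 with a known length. Per kb, Cldn1 was 27.3 times and Cldn5 49.4 times higher, and per kb of coding sequence 28.8 and 17.2 times. An antisense gene, Gm12927, overlaps Cldn19 and had a mean of 0.579.

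Ocln, a 4-span protein of the seal that is not a claudin, had 423.5 normalized counts (interval 407 to 440) and 104.5 per kb (interval 100 to 109). Tjp1 had the highest count of the 9, 3138 (interval 3094 to 3183), higher than 95.8% of the genes above 0. On its transcript of 7.049 kb this came to 445 per kb, 4.26 times the level of Ocln, or 2.21 times per kb of coding sequence.

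Cdh1 codes for E-cadherin, the cadherin of most epithelia, and Cdh3 for P-cadherin, which is the main cadherin of mouse RPE. Cdh1 had 1575 normalized counts (interval 1543 to 1607) and 356 per kb. For Cdh3 the values were 1019 (interval 993 to 1045) and 232 per kb. Cdh1 was 1.53 times higher per kb and 1.44 times higher per kb of coding sequence. The intervals of the 2 genes did not overlap, but whether this order holds in each mouse cannot be read from a mean over mice.

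Ordered by level per kb, the genes ran Cldn5, Cldn1, Tjp1, Cdh1, Cdh3, Cldn2, Cldn10, Ocln and Cldn19. Neighbours differed by 1.02 times (Cldn10 over Ocln) to 4.13 times (Ocln over Cldn19), and the whole range was 49.4 times. Per kb of coding sequence the range was 28.8 times, and Ocln over Cldn19 was 1.73 times. Of the 36 pairs of genes, 32 kept their order when coding length was used and 32 when no length was used. The 4 pairs that turned with coding length were Cldn5 with Cldn1, and Cldn2 with Tjp1, Cdh1 and Cdh3. Without a length, the 4 were Cldn5 with Cldn1, Tjp1 with both of these, and Cldn10 with Ocln.

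**Figure D2:**
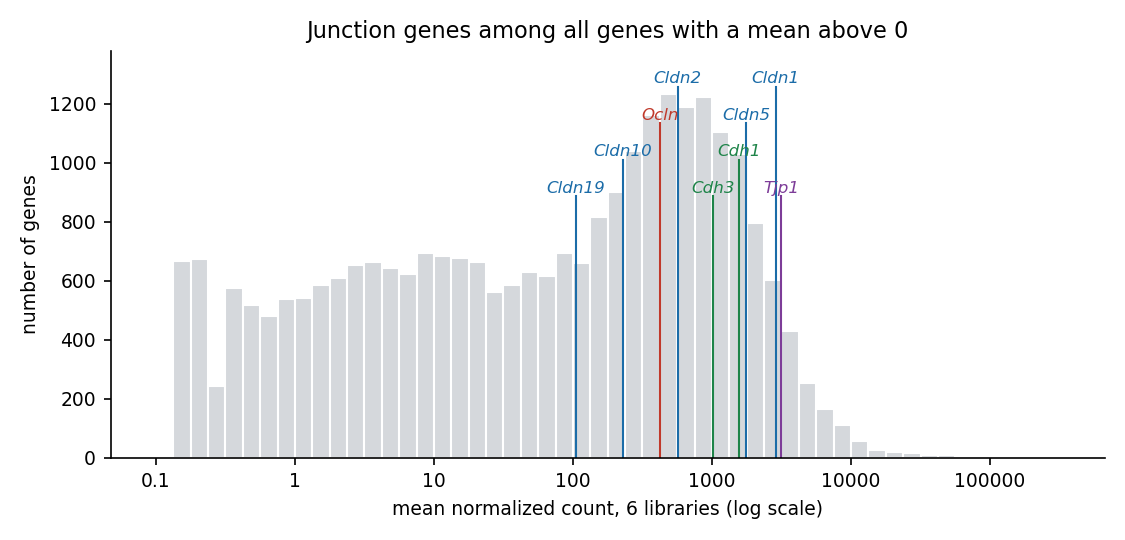
Number of genes (y axis) by mean normalized count (x axis, log scale) for the genes with a mean above 0, with the 9 junction genes as labelled vertical lines whose heights carry no value. Cldn19, at 105.4, is the leftmost and Tjp1, at 3138, the rightmost.

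Other claudins were counted from a list of 30 symbols, 24 of which were in the table. Of these, 14 (58.3%) reached 10 normalized counts, against 72.4% of the 20878 protein-coding genes and 53.0% of all genes in the table, 7 lay above 0 but under 10, and 3 (Cldn6, Cldn14 and Cldn18) were at 0. A count of 0 over the 6 libraries allows up to 3 counts, or a mean of 0.5, as a one-sided limit. Cldn16 and Cldn13, at means of 0.200 and 0.148, stood at values that a count of 1 in 1 library gives. Cldn16 is the coding gene next to Cldn1, on the opposite strand and 91.3 kb away.

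The 5 claudins described above held 72.4% of the level per kb summed over the 23 claudins with a known length. Cldn5 alone held 40.0% and Cldn1 22.2%. The order turned with coding length, by which Cldn1 held 38.4% and Cldn5 22.9%, and without a length, by which they held 35.0% and 21.6%. The third was Cldn12, a broadly expressed claudin outside the 5, with 426 per kb, which is 0.617 of the level of Cldn1. Cldn11, a claudin of myelin and other sheaths, stood at 174 per kb between Cldn2 and Cldn10. Cldn7, Cldn4, Cldn22 and Cldn23 had 47.9 to 67.5 per kb and were all above Cldn19, which came 11th of the 23. By coding length Cldn19, at 157 per kb, was above Cldn7, Cldn22 and Cldn23 and just under Cldn4, at 160. Cldn22 shares all of its 31-base words with other genes, so its own level is uncertain. Cldn25 had 348 normalized counts, but no length was found for it under that symbol.

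**Figure D3:**
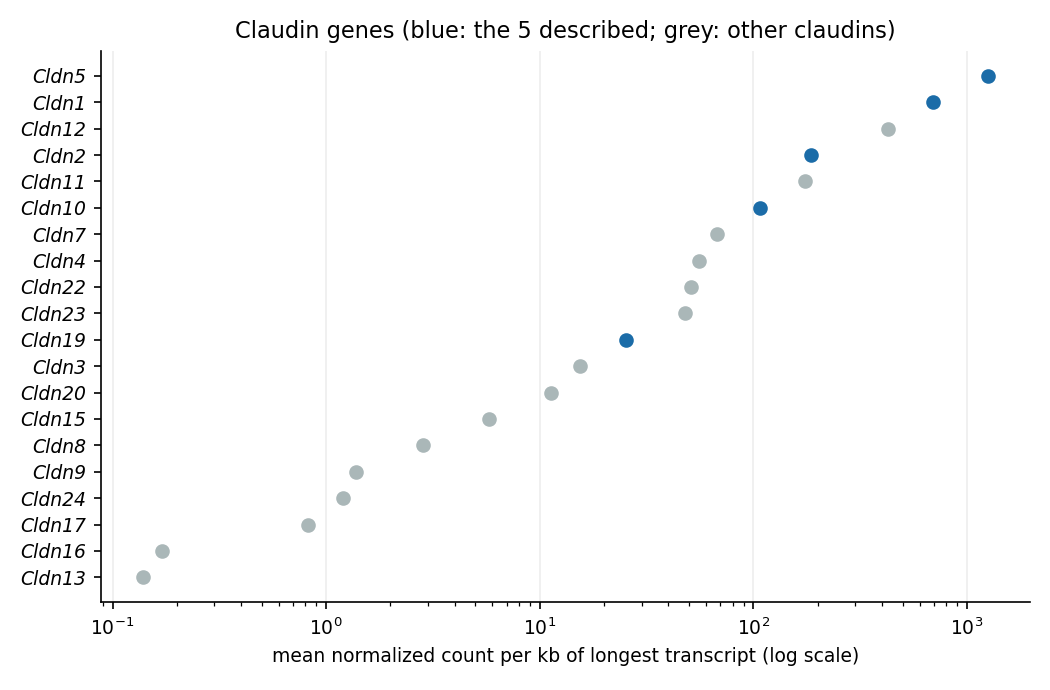
Level per kb of longest transcript (x axis, log scale) of the 20 claudins with a mean above 0 and a known length, with the 5 described here in blue and others in grey. Cldn5 and Cldn1 lead, Cldn12 follows, and Cldn19 at 25.3 lies below Cldn7, Cldn4, Cldn22 and Cldn23.

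Beyond the claudins, 58 genes of tight and adherens junctions were listed by role, and 57 of them reached 10 normalized counts, against 15117 of the 20878 protein-coding genes. The exception was Igsf5, a member of the junctional adhesion molecules, with a mean of 0.367. Among proteins with the MARVEL domain, Ocln held 78.7% of the level per kb. Marveld2 (tricellulin, found where 3 cells meet) had 15.5 per kb and Marveld3 had 12.7. Marveld2 lies beside Ocln on the same strand, 43.2 kb towards higher coordinates, and Gtf2h2 lies 3.93 kb away on the other side.

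Among the 18 genes for scaffold and polarity proteins of the tight junction, all above 100 normalized counts, 4 were above Tjp1 per kb, 5 per kb of coding sequence and 2 by normalized count. Cgnl1 (paracingulin), with 643 per kb, and Mpdz, with 617, were the highest on the first of these scales, and Tjp3 (ZO-3) was lowest of the 18, with 52.8. Per kb of coding sequence Mpp5 (1285) was above Cgnl1 (1116), and Mpdz (748) was about level with Prkci (751). Of the junctional adhesion molecules, Jam3, Esam and Jam2 were highest, with 1190, 515 and 381 per kb, although 67.8% of the words of Jam3 were its own. Per kb of coding sequence Esam, at 813, was below Jam2 (1725), Cxadr (1318) and F11r (911).

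Cdh1 and Cdh3 held 58.0% of the level per kb of the 6 classical cadherins. Cdh5 (VE-cadherin, of endothelium) lay between them, with 257 per kb, and Cdh2 (N-cadherin) had 128, or 0.359 of Cdh1. Among 12 type II cadherins, Cdh11, which is typical of mesenchymal cells, had 1215 per kb, above both Cdh1 and Cdh3, and Cdh19, typical of Schwann cell precursors and melanocytes, had 411. Cdh18 was next, with 40.0.

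The 3 highest of the cytoplasmic partners of the cadherins were each above every classical cadherin. Ctnnb1 (beta-catenin, which also acts in Wnt signalling) had 7605 per kb, Ctnna1 (alpha-catenin) 2232 and Ctnnd1 (p120-catenin) 712, and only 41.4% of the words of Ctnnd1 were its own. Nectins, which bind cells together through afadin, ran from 59.8 per kb (Pvrl1) to 177 (Pvrl3), with Pvrl2 at 84.1 and Pvrl4 at 81.6. Per kb of coding sequence Pvrl1 (219) was below Pvrl3 (977) but above Pvrl4 (195) and Pvrl2 (145). By normalized count it was likewise second. By the median over genes, levels per kb were 481 for the 9 catenins and linkers and 232 for the 9 genes described here. The median was 46.2 over all genes above 0 with a known length, a set that includes non-coding genes.

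**Figure D4:**
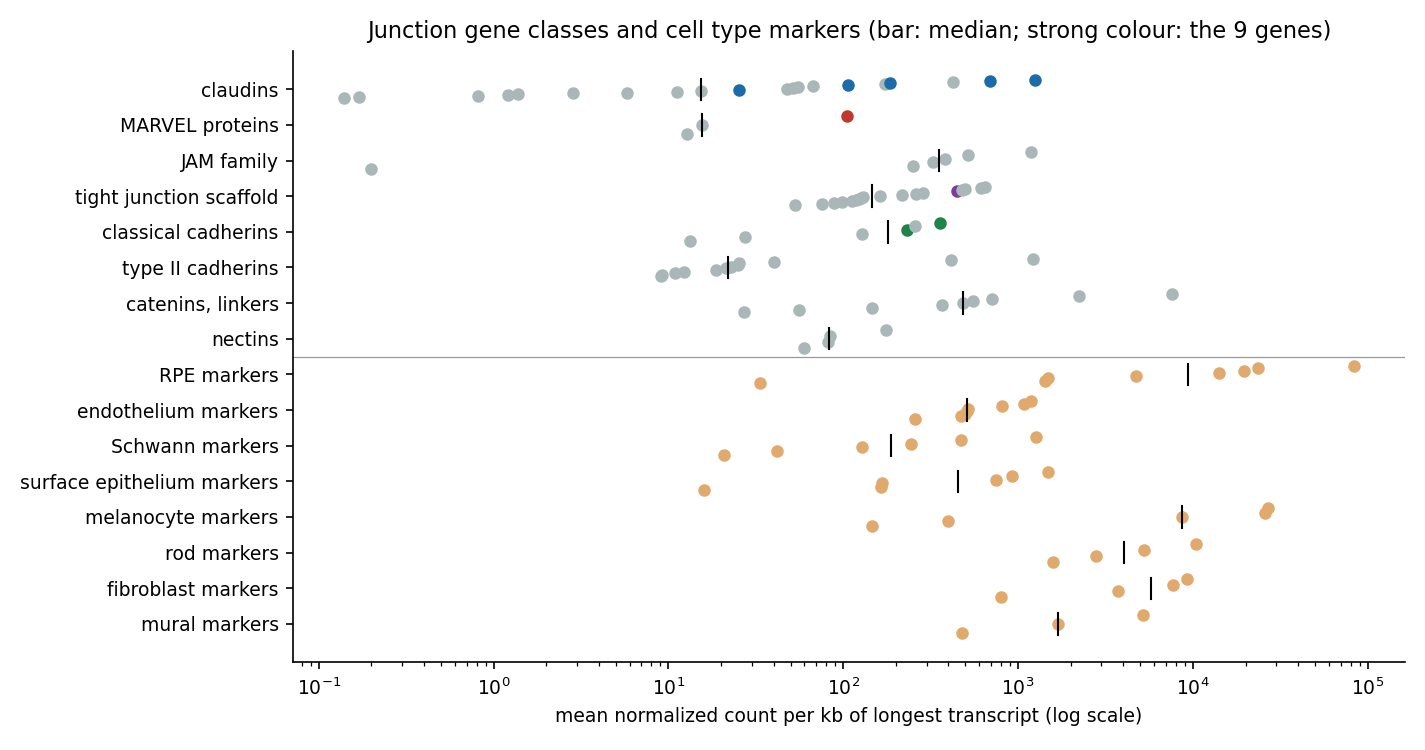
Level per kb of longest transcript (x axis, log scale) for 8 classes of junction genes and 8 lists of cell type markers, each point 1 gene with a level above 0 and each bar the median of the list. The 9 junction genes (blue, red, purple and green) lie between 25.3 and 1249 per kb, on this scale below 7 of the 8 RPE markers. Per kb of coding sequence, not drawn here, Cldn1 (4525) was above the RPE markers Otx2 (4319) and Stra6 (2178), and Cldn5 (2704) was above Stra6.

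Levels of cell type markers are given here and do not test the tissue label. A level of 100 normalized counts was reached by 12863 of the 26681 genes with a mean above 0, so reaching it does not single out a tissue. Of 8 RPE markers, 7 were above 100 normalized counts, with Ttr at 83745 per kb and Rpe65, the retinoid isomerase of the RPE, at 23481, whereas Best1 was at 33.6. Set against Rpe65, the levels per kb were 0.0294 for Cldn1, 0.00990 for Cdh3, 0.00445 for Ocln and 0.00108 for Cldn19. Per kb of coding sequence the same ratios were 0.165, 0.0151, 0.00990 and 0.00573. Markers of other cells were measured too, and 8 of 8 endothelial markers were above 100 normalized counts. Plvap and Kdr led them per kb, with 1187 and 1077. Per kb of coding sequence Emcn was highest (3660), and by normalized count Kdr (6377) and Flt1 (3517) led. Esam and Cdh5 are on both the junction and the endothelial lists.

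Schwann cells and surface epithelia are known to express some of the 9 genes. Of 6 Schwann cell markers, 5 were above 100 normalized counts, with Pmp22 the highest, at 1272 per kb, and Egr2 the lowest, at 20.8. Keratins of the ocular surface were also measured, although the cornea had been cut away: Krt12, the corneal keratin, had 1487 per kb and Krt13 had 920, and 5 of the 6 surface epithelium markers exceeded 100 normalized counts. Among rod markers, all above 100 normalized counts, Gnat1 had 5239 per kb. Fibroblast markers ran from 800 to 9256 per kb (Col1a1 7732 and Dcn the highest), melanocyte markers from 146 to 27072 (Dct 25772 and Pmel the highest) and mural cell markers from 480 to 5211 (Acta2 1697 and Rgs5 the highest). Per kb of coding sequence Dct (57476) was above Pmel (30705). By normalized count Dct was again above Pmel, and Col1a1 (45848) was above Dcn (43430). Dct and Pmel are also made by the RPE. A level of 100 was also reached by 12863 of the 26681 genes with a mean above 0. These marker counts therefore do not show by themselves which cell types were present. How much of each junction gene came from each cell type was not tested.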

How the data were processed

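Total RNA was depleted of ribosomal RNA without poly(A) selection and prepared with a stranded kit. The authors trimmed reads with BBDuk, mapped them with STAR to Ensembl transcripts of GRCm38, estimated abundance with Sailfish as TPM, turned it into normalized counts by the total count method and ran DESeq2. The deposited baseMean is a signal that is never negative, the authors' mean of normalized counts over all 6 libraries. Its 33924 values summed to 19192071, and 7243 were 0. Reads per library cannot be read from this table. The table has 0 columns that name a sample. Its other 5 columns hold the authors' own comparison of ages (fold changes, their errors and p-values) and were not used, so no test was made.

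Lengths came from GENCODE M21 (GRCm38), matched by symbol or older symbol for 30961 genes (91.3%). Per-kb levels use the longest transcript. Genes at 10 or more normalized counts were called present. Intervals are exact Poisson (95%) on the mean times 6, scipy 1.17.1, Python 3.11.15. Their code was run on simulated Poisson counts, which hold no spread between mice and cannot show that the intervals fit these data. Word uniqueness used GENCODE transcripts and words of 31 bases.

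The members and lists were chosen with earlier results of these data known. Named genes are the 9 members, the 3 highest per kb of each class and the 2 highest of each marker list, except that some of these are not reported here. Others (Mpp5, Prkci, Cxadr, F11r, Cldn11, Cldn13, Cldn16, Cldn25, Cdh2, Tjp3, Igsf5, Best1, Egr2, Emcn, Flt1, Otx2, Stra6, the claudins around Cldn19, those at 0 and the remaining nectins and neighbouring genes) were chosen after their values were seen. Protein features were planned but not analysed here.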

Additional observations from a re-analysis of the deposited data

How the results depend on the processing

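No paired analysis was possible because the value used is 1 mean over all libraries. For the same reason no library could be left out in turn, and no replicate block or other normalization was run. The 5 claudins held 72.4% of the summed claudin level per kb, 67.6% without a length, where Cldn25 also enters the sum, and 74.0% with the longest coding transcript, a length added after the data had been seen. Of the 9 genes, 4 to 7 were in the top 25% under the other rankings, against 5. Claudins called present numbered 16 at a minimum of 5 and 12 at 30, against 14. The order of Cldn5 and Cldn1 turned with coding length. The order of Cldn10 and Ocln depended on the length: their intervals overlapped per kb of longest transcript, and Ocln was higher without a length.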
